A study of Mus musculus with 10 samples.

Results

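The genes described here act in the cell division cycle, 25 of them in DNA replication and 20 in mitosis. They were listed by symbol and matched to the gene names in the array files, and each gene was read from its probe with the highest mean log2 signal over the 10 arrays. All 45 were found, with 62 probes, among the 25075 named genes and 55681 probes of a whole mouse genome array. The study hybridized each RNA sample to 1 Agilent array of the 8x60K format with Cy3 as the only dye, and asked how FGF5 acts on spermatogonia in culture and in the testis. Germline stem (GS) cells, which are spermatogonia that self-renew in culture, spent 3 days without FGF2 and without GDNF and were next kept for 24 hr with FGF5 at 100 ng/mL (2 arrays) or with 0 ng/mL (2 arrays), in 2 experiments on different biological samples. Their labels give the strain C57BL/6 and a wildtype genotype, whereas the methods name an intercross of C57BL/6 and ICR mice. GFRα1+ spermatogonia were sorted as the GFP+ fraction from testes of C57BL/6 mice of 2.5 months that carried a Gfrα1-GFP knock-in allele, either wild-type at Fgf5 (WT, 3 arrays) or Fgf5-/- through the go-moja/Utr allele (3 arrays), in 3 independent experiments each. How many animals entered a sorted sample is not stated in the sources used here.

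Before a cell copies its DNA, the origin recognition complex and the CDC6 and CDT1 proteins load the MCM helicase onto replication origins, and E2F transcription factors and cyclin E switch on the genes that make the fork and its nucleotides. Later in the cycle, cyclin A and cyclin B, the Polo-like and Aurora kinases and the spindle checkpoint drive and control the separation of the chromosomes. Transcripts of both sets are abundant in dividing cells and scarce in resting ones, and GFRα1+ spermatogonia include the stem cells that divide in the adult testis.

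Levels below are log2 signals minus the 75th percentile of the array, so a level of 0 is the brightness at that percentile. A level compares 1 probe between arrays and not probes with each other. Arrays of cultured cells had a 75th percentile between 575.2 and 649.8 scanner units, and arrays of sorted cells between 794.3 and 1091. Between 63.4% and 65.7% of spots were well above background in culture and between 56.1% and 66.4% in sorted cells, and 0 spots were saturated. All cultured arrays lay on 1 slide with 1 scan and all sorted arrays on another. Only the cultured cells had spent 3 days without FGF2 and GDNF. Slide, scan, this depletion and material thus cannot be told apart. The number of arrays limits the precision of every value.

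Fgf5 itself was read from 1 probe. Its level was -5.47, -6.59 and -6.66 on the WT arrays and -3.42, -6.83 and -6.90 on the Fgf5-/- arrays, well above background on 0 of 3 and 1 of 3 arrays. The sorted cells of either genotype thus gave little Fgf5 signal, and the probe is no check of the genotype. In GS cells the level was -2.89 and -3.92 with FGF5 and -2.81 and -2.88 without, above background on all 4 arrays. The cell labels were set beside 15 genes of undifferentiated spermatogonia. All 15 were well above background on every array, and their summed linear signal relative to the 75th percentile was 186 to 195 in culture, 222 to 236 in WT and 197 to 228 in Fgf5-/- cells. The Zbtb16 probe was the brightest, and here and in the marker lists below the brightest probe is named only as the one that adds most to a sum, not as the most abundant RNA. The germ cell gene Ddx4 lay at 5.03 to 5.17 in culture and at 5.15 to 5.28 in sorted cells. Gfra1 lay at -4.07 to -0.52 in culture and at 0.58 to 0.89 in sorted cells. The 7 markers of differentiating spermatogonia were also above background on every array, so detection alone does not settle the identity of the cells.

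Of the members, 24 of 25 replication genes and 20 of 20 mitosis genes passed the filter on dim probes in each comparison, for which all arrays of 1 side or the other had to lie well above background. The exception was Ccne2, which encodes a second cyclin E and was well above background on 0 of 10 arrays, so no difference is given for it. The medians of the replication and mitosis genes were higher on the sorted than on the cultured arrays. Relative to each gene's WT mean, the median over the 24 replication genes was -1.53 and -0.75 on the arrays with FGF5 and -1.46 and -1.18 on those without. It was 0.05, -0.05 and 0.01 on the WT arrays and -0.20, -0.06 and -0.04 on the Fgf5-/- arrays. For the 20 mitosis genes it was -2.08 and -1.48 with FGF5, -2.02 and -1.62 without, 0.01, -0.04 and 0.05 in WT, and -0.22, 0.00 and -0.07 in Fgf5-/- cells. For both sets every cultured array lay below every sorted array, and within culture the second array of each condition lay above the first. The same medians over 8 reference genes were -0.49 to -0.19 in culture and -0.38 to -0.03 in Fgf5-/- cells.

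**Figure D1:**
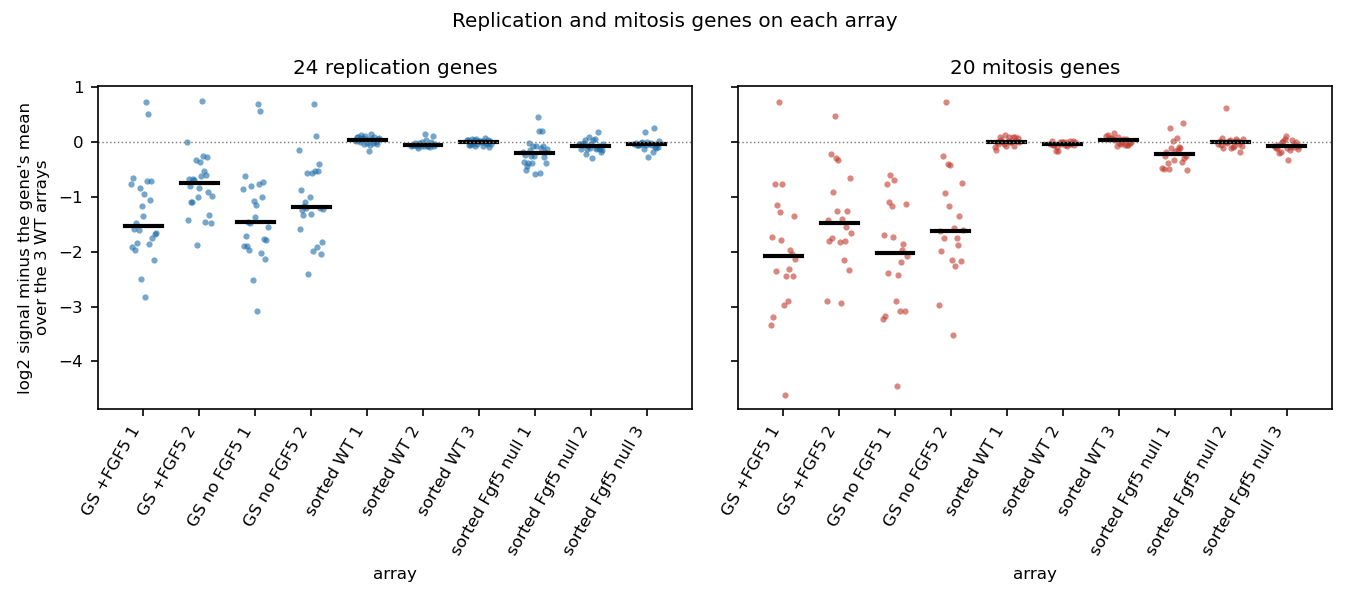
Log2 level of 24 replication genes and 20 mitosis genes on each of 10 arrays, relative to the gene's mean on the 3 WT arrays. Each point is a gene, and the black bar is the median. The medians of both sets lie between -2.08 and -0.75 on the 4 cultured arrays and between -0.22 and 0.05 on the 6 sorted arrays.

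Cultured GS cells had lower levels of most replication and mitosis genes than sorted GFRα1+ cells. All cultured cells had spent 3 days without FGF2 and GDNF, which cannot be told apart from culture itself. With limma over all 10 arrays, 21 of the 24 tested replication genes and 19 of the 20 mitosis genes were lower in culture at an adjusted p under 0.05, and 1 replication gene, Tyms, was higher. Over all 33924 probes tested, 26.7% were lower and 41.8% higher in culture by the same rule. The median log2 difference, cultured minus sorted, was -1.20 for the replication genes and -1.78 for the mitosis genes, against 0.23 for all probes tested. The cultured and sorted arrays did not overlap for 20 replication genes and 18 mitosis genes on the lower side and for 1 replication gene on the higher side, where 21.9% of all probes lay apart with culture lower and 35.2% with culture higher. At least 2-fold lower were 15 replication and 14 mitosis genes, and 3614 of all 33924 probes. The median of all probes depends on the scaling, from 0.09 with normexp background correction to 0.36 with the percentile taken over detected probes, and it was 0.08 when a stricter filter left fewer dim probes in it. Relative to it, the replication median was -1.43 and the mitosis median -2.01, and these lay at -1.25 and -1.76 with quantile normalization and at -1.18 and -1.64 with normexp. In bulk RNA, fewer dividing cells and less of each RNA per cell cannot be told apart.

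Licensing genes load the MCM helicase or control its loading. All 9 here had a lower mean in culture, with log2 differences of -1.63 to -0.39, and 8 passed the test. Mcm6, a subunit of the helicase, was 4.72 and 5.59 with FGF5, 4.80 and 5.36 without, and 6.25 to 6.73 in sorted cells with a median of 6.65. All 4 cultured arrays lay below all 6 sorted arrays, and the difference was -1.48 ± 0.19 (SE, 4 against 6 arrays), with an adjusted p of 0.000201 in limma. The level of Mcm2, a further helicase subunit, was 3.44 and 4.21 with FGF5, 3.35 and 4.06 without, and 4.02 to 4.24 in sorted cells. The second array of each condition reached the sorted range, and the difference of -0.39 ± 0.18 had an adjusted p of 0.086 in limma. Without the second array with FGF5 it was -0.59 (adjusted p = 0.0167), and without the second array lacking FGF5 it was -0.57 (adjusted p = 0.0248), so this call rests on which culture array is used. Mcm3, Mcm5 and Mcm7 differed by -1.63, -1.23 and -1.22, and Mcm4 by -0.64. A second Mcm3 probe gave only -0.26 (adjusted p = 0.102), so the probes of that gene disagree. Cdc6, which recruits the helicase, differed by -1.18, but its dimmer probe, above background on 8 of 10 arrays, gave 0.28. Cdt1, its partner in loading, differed by -0.56, and Gmnn, which encodes the inhibitor of CDT1, by -1.33, with -2.37 at a second probe.

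Promoter sequences are shown for a few genes of each set, picked after their values and motif matches were seen, because members of a set that move together can be read beside the DNA upstream of them. RefSeq promoters (build GRCm38.p6) were given for 36 of the 45 members, 19 replication and 17 mitosis genes, and the 250 bases before the start were searched on both strands. The E2F letters TTTGGCGC, TTTCCCGC, TTTCGCGC and TTTGCCGC occurred in 5 of 19 replication genes (Cdc6, Mcm5, Mcm6, Mcm7 and Pola1) and 0 of 17 mitosis genes, and in 1.92% of all 27025 promoters. Capitals mark these letters, CCAAT and, in the mitosis genes further on, TTTGAA, on either strand, and neighboring matches can overlap. A match describes the letters only. The Mcm6 window at chr1:128359706-128359955 (minus strand) held 3 E2F matches, of which a pair overlaps in 1 run of capitals, and 2 CCAAT matches. The window of Pola1, the catalytic subunit of the primase-coupled polymerase, at chrX:93632156-93632405 (minus strand) held 1 of each. The Tyms window at chr5:30073626-30073875 (minus strand) is shown as that of the gene higher in culture, and held 0 matches. The windows of Ccne1, Cdt1, E2f1 and Lig1, which were lower in culture, also held 0 matches.
Mcm6 promoter: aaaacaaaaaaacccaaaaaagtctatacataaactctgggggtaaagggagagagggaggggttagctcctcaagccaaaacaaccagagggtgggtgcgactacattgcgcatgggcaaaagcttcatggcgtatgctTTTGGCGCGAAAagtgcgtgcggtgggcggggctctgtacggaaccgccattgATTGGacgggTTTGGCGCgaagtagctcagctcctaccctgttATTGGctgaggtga
Pola1 promoter: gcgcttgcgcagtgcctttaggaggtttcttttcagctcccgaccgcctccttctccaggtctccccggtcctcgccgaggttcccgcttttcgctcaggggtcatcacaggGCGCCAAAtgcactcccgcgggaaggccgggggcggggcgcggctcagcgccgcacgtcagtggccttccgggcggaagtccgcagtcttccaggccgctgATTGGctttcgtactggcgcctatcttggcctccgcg
Tyms promoter: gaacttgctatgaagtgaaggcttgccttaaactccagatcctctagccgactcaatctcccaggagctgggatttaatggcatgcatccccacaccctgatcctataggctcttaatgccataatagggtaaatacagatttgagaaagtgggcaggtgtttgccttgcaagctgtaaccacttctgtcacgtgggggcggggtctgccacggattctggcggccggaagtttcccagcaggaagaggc

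Helicase activation and fork genes followed the licensing genes. Gins1, part of the GINS complex that activates the helicase, had the lowest difference of the replication genes. Its level was 0.39 and 1.01 with FGF5, 0.37 and 0.48 without, and 2.51 to 2.95 in sorted cells with a median of 2.84. No cultured array came near the sorted ones, and the difference of -2.23 ± 0.14 (adjusted p = 4.67e-06, limma) is a level 4.69-fold lower. Gins2 differed by -1.09 and Mcm10, a fork assembly factor, by -1.39. Pola1 was -0.05 and 0.34 with FGF5, -0.23 and -0.11 without, and 1.62 to 1.87 in sorted cells, a difference of -1.75 ± 0.10 (adjusted p = 4.02e-06, limma). Pcna, the sliding clamp of the fork, was 3.59 and 4.10 with FGF5, 3.57 and 3.62 without, and 4.67 to 4.96 in sorted cells. The groups were again apart, with a difference of -1.14 ± 0.12 (adjusted p = 5.36e-05, limma). Lig1, the DNA ligase that joins Okazaki fragments, and Pole, the leading strand polymerase, differed by -1.33 and -0.90. Fen1, the flap nuclease, had the smallest drop of the replication genes called lower, from 5.06 to 5.18 in sorted cells to 4.43 to 4.88 in culture. Its difference of -0.48 ± 0.12 passed in limma (adjusted p = 0.0052) but not with quantile normalization (adjusted p = 0.053) or normexp (adjusted p = 0.0832).

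Chaf1a and Chaf1b encode subunits of CAF-1, the histone chaperone that packs new DNA. Chaf1a differed by -0.60. Chaf1b was 5.02 and 3.98 with FGF5, 5.09 and 4.63 without, and 3.96 to 4.57 in sorted cells, so that the groups overlapped, and its difference of 0.28 ± 0.21 did not pass (adjusted p = 0.263, limma). A second probe of it gave 0.50 (adjusted p = 0.0467), and without the second array with FGF5 the first probe gave 0.54 (adjusted p = 0.0228), as it gave 0.47 (adjusted p = 0.0464) with normexp. It gave -0.02 where GS cells with FGF5 were set against WT alone.

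The 3 genes of nucleotide supply also split. Tyms, which encodes thymidylate synthase, was -1.66 and -1.64 with FGF5, -1.70 on both arrays without, and -2.44, -2.35 and -2.39 in WT and -1.94, -2.35 and -2.43 in Fgf5-/- cells. Every cultured array was above every sorted array, and the difference was 0.64 ± 0.11 (adjusted p = 0.0011, limma), 1.56-fold. It stayed between 0.32 and 0.78 over 21 other settings. Rrm2, the small subunit of ribonucleotide reductase that limits the enzyme in S phase, was -0.29 and 1.90 with FGF5, -0.56 and 0.54 without, and 2.24 to 2.68 in sorted cells with a median of 2.41. It was lower on each cultured array, by -2.02 ± 0.39 (adjusted p = 0.00184, limma), but the cultured arrays of 1 condition differed by as much as the materials did. Its partner Rrm1, the large subunit, differed by -0.65 (adjusted p = 0.0117, limma) with arrays that overlapped, since the first Fgf5-/- array lay at 3.54 and cultured arrays reached 3.76. That call was lost at -0.50 without the first array with FGF5 (adjusted p = 0.0506, limma) and at -0.51 without the first array lacking it (0.0514). It was also lost, at an unchanged -0.65, where GS cells with FGF5 were set against WT alone (0.0621). Of the genes that start S phase, Ccne1, which encodes a cyclin E, was 0.77 and 1.60 with FGF5, 0.80 and 0.88 without, and 2.74 to 3.04 in sorted cells, and E2f1, the transcription factor, was 2.02 and 2.22, 1.90 and 1.88, and 3.32 to 3.74. Both were apart, with differences of -1.85 ± 0.16 (adjusted p = 2.16e-05) and -1.59 ± 0.10 (adjusted p = 4.92e-06) in limma.

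Of the 3 mitotic cyclins, Ccna2 and Ccnb2 were among the mitosis genes with the largest differences, and Ccnb1 differed by less than the mitosis median. Ccna2, which encodes cyclin A, was -0.67 and -0.22 with FGF5, -0.55 and -0.30 without, and 2.20 to 2.79 in sorted cells with a median of 2.63. The gap between the materials was far wider than the spread within either, and the difference of -3.01 ± 0.14 (adjusted p = 1.34e-06, limma) is a level 8.08-fold lower. The cyclin B genes Ccnb1 and Ccnb2 differed by -1.52 ± 0.13 and -2.47 ± 0.30 (adjusted p = 2.32e-05 and 0.000132, limma). Ccnb1 was 1.84 and 2.16 with FGF5, 1.87 and 1.95 without, and 3.08 to 3.70 in sorted cells. Ccnb2 was 1.58 and 2.98, 1.61 and 2.79, and 4.52 to 4.83, so its cultured arrays were less alike.

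Proliferation and chromosome genes went the same way. Mki67, which encodes the Ki-67 protein that coats mitotic chromosomes and is used as a marker of dividing cells, had the largest difference of all members. Its level was 0.03 and 1.70 with FGF5, 0.19 and 1.11 without, 4.73, 4.58 and 4.59 in WT, and 4.70, 4.55 and 4.30 in Fgf5-/- cells. The difference was -3.82 ± 0.32 (adjusted p = 1.84e-05, limma), a level 14.1-fold lower, and a second probe gave -4.05. Top2a, the topoisomerase that untangles sister chromatids, was 0.58 and 1.72 with FGF5, 0.64 and 1.40 without, and 3.38 to 3.56 in sorted cells. Its sorted arrays were close together, and the difference was -2.39 ± 0.23 (adjusted p = 3.78e-05, limma). Among the 6 centromere and spindle genes, all lower in culture, Kif11, the motor that pushes the spindle poles apart, was -2.58 and -1.83 with FGF5, -2.75 and -1.93 without, and 0.24 to 0.38 in sorted cells. The difference was -2.57 ± 0.19 (adjusted p = 1.11e-05, limma). Kif20a, a motor of cell division, Birc5 and Cdca8 of the chromosomal passenger complex, the centromeric histone gene Cenpa and the kinetochore motor gene Cenpe differed by -2.01, -1.90, -0.89, -1.78 and -1.66.

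The promoters of these 3 genes are shown because each carries the letters TTTGAA, a core of the cell cycle homology region known from mitotic genes. TTTGAA occurred in 6 of 17 mitosis genes (Ccnb2, Cdc20, Kif11, Mki67, Top2a and Ube2c), in 2 of 19 replication genes (Fen1 and Mcm2) and in 16.3% of all promoters. CCAAT occurred in 15 of 17 mitosis genes, in 11 of 19 replication genes and in 34.5% of all promoters. The windows lie at chr19:37376132-37376381 (plus strand) for Kif11, chr7:135716380-135716629 (minus strand) for Mki67 and chr11:99024190-99024439 (minus strand) for Top2a. They held 1, 2 and 2 TTTGAA matches and 1, 3 and 6 CCAAT matches, in capitals on either strand.
Kif11 promoter: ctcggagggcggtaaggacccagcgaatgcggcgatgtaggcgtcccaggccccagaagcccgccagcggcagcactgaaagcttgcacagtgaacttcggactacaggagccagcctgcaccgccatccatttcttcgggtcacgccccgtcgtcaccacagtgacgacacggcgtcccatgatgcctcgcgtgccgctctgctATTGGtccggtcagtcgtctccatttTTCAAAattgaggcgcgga
Mki67 promoter: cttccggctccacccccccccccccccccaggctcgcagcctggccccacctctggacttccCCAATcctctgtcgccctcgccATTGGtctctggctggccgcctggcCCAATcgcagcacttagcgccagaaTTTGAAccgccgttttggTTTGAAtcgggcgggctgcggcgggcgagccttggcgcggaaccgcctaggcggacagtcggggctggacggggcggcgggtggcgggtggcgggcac
Top2a promoter: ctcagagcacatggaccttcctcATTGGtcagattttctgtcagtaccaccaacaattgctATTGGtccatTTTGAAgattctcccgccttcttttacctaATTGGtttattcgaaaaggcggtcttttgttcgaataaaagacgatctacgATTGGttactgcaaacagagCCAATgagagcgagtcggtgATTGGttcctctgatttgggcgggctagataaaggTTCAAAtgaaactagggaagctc

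The kinase and checkpoint genes ranged widely and held the smallest differences of the mitosis genes. Plk1, Ttk and Aurka, which encode mitotic kinases, were lower in culture by log2 differences of -1.95, -2.42 and -0.91. Bub1, a checkpoint kinase, was 1.47 and 2.46 with FGF5, 1.57 and 2.35 without, and 2.64 to 2.78 in sorted cells. The second array of each condition lay close below the sorted ones, and the difference of -0.77 ± 0.21 passed (adjusted p = 0.011, limma), but not with fewer arrays, where 1 culture condition was set against WT alone (-0.78 in both, adjusted p = 0.052 and 0.0562). Aurkb, an Aurora kinase of the passenger complex, was the only mitosis gene that did not pass, and the sign of its difference was not settled. Its level was -2.79 and -3.03 with FGF5, -4.12 and -2.78 without, and -3.67 to -2.89 in sorted cells, which overlap, and the difference of 0.19 ± 0.25 (adjusted p = 0.527, limma) was -0.24 with quantile normalization and 0.52 (adjusted p = 0.0295) without the first array lacking FGF5. Cdc20, which activates the anaphase-promoting complex, was 4.28 and 4.83 with FGF5, 4.28 and 4.80 without, and 4.86 to 5.13 in sorted cells. The groups were apart by little, and the difference of -0.47 ± 0.15 (adjusted p = 0.0202, limma) did not pass with quantile normalization (adjusted p = 0.0838), normexp (0.0799), the percentile over detected probes (0.0589), 1 culture condition against WT alone (0.0681 and 0.0771, at -0.51 and -0.50), or without the first array with FGF5 (0.0811) or without it (0.0827). Mad2l1, a checkpoint protein gene, differed by -0.52 ± 0.13 (adjusted p = 0.00839, limma) with arrays that overlapped, and its other probes gave 0.03 and 0.26, so the call holds for 1 of 3 probes. Bub1b, a checkpoint gene, and Ube2c, the conjugating enzyme of the anaphase-promoting complex, differed by -1.50 and -1.78.

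**Figure D2:**
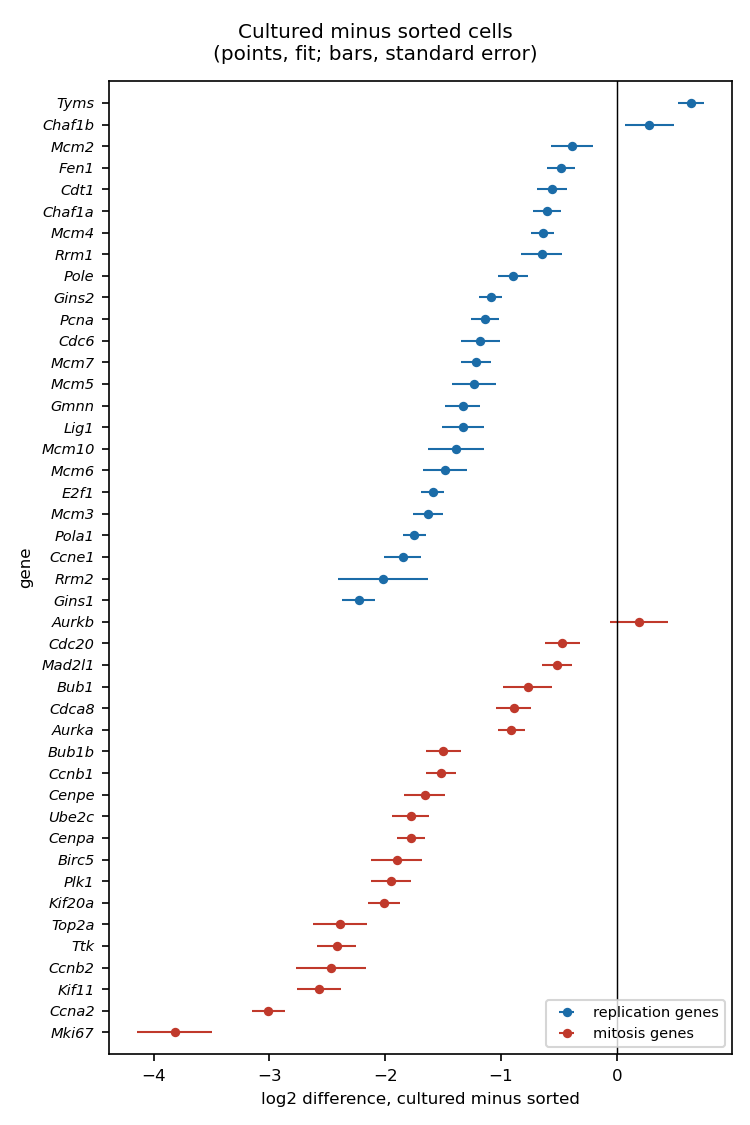
Log2 difference of cultured GS cells minus sorted GFRα1+ cells for each tested member, with its standard error. Values run from -3.82 for Mki67 to 0.64 for Tyms, and the mitosis genes reach lower than the replication genes.

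Further genes of both processes were counted in the same way. Of 42 other replication genes tested, 32 were lower in culture and 0 higher in limma, with a median difference of -0.61, and 8 were at least 2-fold lower. Ticrr and Wdhd1, which act in origin firing and at the fork, were lowest with -2.53 and -1.60, and Gins3, a GINS subunit, and Orc5, of the origin recognition complex, were highest with 0.32 (adjusted p = 0.0658) and 0.05. Of 53 other mitosis genes tested, 43 were lower and 1 was higher, with a median of -1.09, and 30 were at least 2-fold lower. Nusap1, a spindle protein gene, and Cdca3 were lowest with -2.75 and -2.18, and Cks2, a subunit that binds cyclin-dependent kinases, was higher by 0.32 (adjusted p = 0.0387), followed by Hmmr, a spindle protein gene, with 0.17 (adjusted p = 0.261). Of 8 reference genes, 2 were higher and 3 lower, with a median of -0.23.

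Some markers of other cell types also differed between the materials, and their part in these differences was not tested. By the same rule, 41.8% of all probes tested were higher and 26.7% lower in culture, beside which the counts here stand. For fibroblasts and peritubular cells, 7 of 11 tested markers were higher in culture and 2 lower. Their summed signal was 15.3 and 7.01 with FGF5, 16.7 and 8.01 without, 5.26 to 6.15 in WT and 6.05 to 6.65 in Fgf5-/- cells, with Col1a1 the brightest on every array. Endothelial markers summed to 11.5 to 20.8 in culture and 2.75 to 4.98 in sorted cells, with 3 of 5 tested genes higher and 2 lower, Vwf or Kdr the brightest and Emcn above background on 0 arrays. Macrophage markers summed to 4.15 to 4.98 in culture and 1.24 to 2.33 in sorted cells, with 4 of 5 tested genes higher, Csf1r the brightest on 9 of 10 arrays, and Lyz2 above background on none. Leydig cell markers summed to 4.99 to 6.65 and 0.424 to 1.96, with both tested genes higher, Cyp17a1 the brightest, and Cyp11a1 and Lhcgr above background on none. Sertoli cell markers summed to 2.69 to 4.20 and 6.75 to 12, with 1 of 8 tested genes higher and 5 lower, led by Wt1 in culture and by Clu or Rhox5 in sorted cells, and Amh and Fshr were above background on none. Markers of differentiating spermatogonia summed to 87.5 to 109 in culture and 152 to 181 in sorted cells, with 3 of 7 lower in culture and Sohlh1 or Stra8 the brightest. Kit, a marker of these cells, was -1.09 to -0.80 in culture and 1.60 to 2.13 in sorted cells. Spermatocyte markers summed to 76.3 to 95.1 and 54.6 to 70.6, with 3 of 10 higher and 5 lower and Tex101 the brightest. Spermatid markers summed to 1.71 to 2.22 and 5.44 to 17.2, with 5 of 6 tested genes lower in culture, Tnp1 the brightest in sorted cells, and Acrv1 and Odf1 above background on none. Of the 15 undifferentiated markers, 3 were higher and 8 lower in culture.

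The next comparison sets GS cells after 24 hr with FGF5 against those without it. Most replication genes had a higher mean with FGF5, 21 of 24, and so did 13 of 20 mitosis genes and 41.4% of all probes, but no member passed the test. In limma, 0 of the 34613 probes passed an adjusted p of 0.05, which is 0% (smallest adjusted p = 1), and 374 probes higher and 508 lower with FGF5, 2.55% of all, had an unadjusted p under 0.05, with 0 members among them. The median log2 difference, with minus without FGF5, was 0.14 for the replication genes, 0.02 for the mitosis genes and -0.03 for all probes tested. The 2 arrays of each condition did not overlap for 3 replication genes, all higher with FGF5, and for 0 mitosis genes, while over all probes 8.18% lay apart with FGF5 higher and 14.5% with FGF5 lower. A p that misses the threshold does not show that values did not differ. Leaving out 1 array moved the replication median from -0.13 to 0.45 and the mitosis median from -0.29 to 0.31, lowest without the second array with FGF5 and highest without the first, so both medians changed sign with the arrays used. Leaving out 1 array sets 2 arrays against 1, and the first and second arrays differed in both conditions, as the next paragraph gives. By array number, which is only a label, the replication median was 0.02 for the first arrays and 0.24 for the second. The mitosis medians were -0.05 and 0.09. Under both numbers 13 of 24 replication genes were higher with FGF5 and 3 lower, against 20.2% and 33.5% of all probes. Of the 20 mitosis genes, 3 were higher and 3 lower under both.

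The spread between culture arrays was larger for these genes than for most. The median SD between the arrays of a condition was 0.39 with FGF5 and 0.33 without for the members, against 0.17 for all probes in each. In a count added after the values were seen, the second array was above the first for 22 of 24 replication genes with FGF5 and 20 of 24 without, by medians of 0.51 and 0.28. For the mitosis genes it was 19 of 20 and 20 of 20, by 0.54 and 0.56. Over all probes the shares were 51.2% and 59%, with medians of 0.01 and 0.08. The second arrays also differed from the first in the sums of marker lists, in both conditions. The fibroblast, endothelial, Leydig cell and Sertoli cell sums were lower on them, the latter at 3.38 after 4.2 with FGF5 and 2.69 after 3.93 without, and the Leydig cell sum at 4.99 after 6.65 and 5.18 after 6.56. The macrophage and spermatid sums were lower as well. The spermatocyte sum was higher, at 94.8 after 76.3 and 95.1 after 79.5, as were the sums of differentiating and undifferentiated spermatogonia. Col1a1 and Vwf made up most of the fibroblast and endothelial differences. Col1a1 went from 3.49 to 1.56 with FGF5 and from 3.71 to 2.02 without, and Vwf from 3.48 to 1.61 and from 3.47 to 2.37, while Myh11, Thy1 and Pdgfra were also lower on both second arrays, Col1a2, Col3a1 and Dcn were higher, and Kdr lay between 2.95 and 3.21 on all 4. In the Sertoli cell list Amhr2 went from 0.38 to -1.52 with FGF5 and from 0.39 to -1.57 without. Sox9 and Rhox5 were also lower on both second arrays, and Wt1 and Clu were higher. The part of these lists in the spread was not tested.

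**Figure D3:**
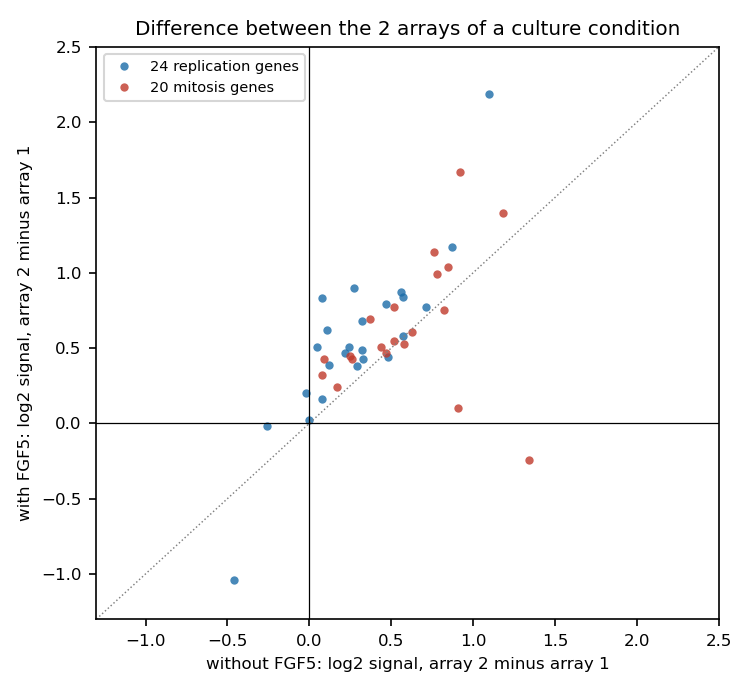
Log2 level on the second minus the first array of GS cells, without FGF5 on the horizontal axis and with FGF5 on the vertical axis, 1 point per member. Most points lie above 0 on both axes, with medians of 0.28 without and 0.51 with FGF5 for the replication genes and 0.56 without and 0.54 with FGF5 for the mitosis genes.

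By role, the licensing genes differed by 0.04 to 0.28 with a median of 0.08, led by Mcm5 (0.28 ± 0.34 SE) and with Mcm2 at 0.12 ± 0.38 and Mcm7 lowest at 0.04 ± 0.22. Rrm2 had the highest difference of all members, 0.81 ± 0.82. Its arrays, given above as -0.29 and 1.90 with and -0.56 and 0.54 without FGF5, show that the second array with FGF5 carried it. By array number the difference was 0.28 and 1.35, and without the second array with FGF5 it was -0.28. Ccne1 differed by 0.35 ± 0.32, also through that array, without which it was -0.07, and Pcna by 0.25 ± 0.23, which was 0.00 without the same array. Pola1 differed by 0.31 ± 0.20, E2f1 by 0.23 ± 0.17 and Tyms by 0.05 ± 0.15, and these are the 3 genes whose arrays did not overlap. The lower end held Chaf1b with -0.36 ± 0.40, Pole with -0.07 ± 0.26 and Gins2 with -0.04 ± 0.16, the 3 replication genes below 0. The Pole probes disagree, with 0.03 ± 0.37 and 0.88 ± 0.26 at the others and 0.28 for their mean. With 1 array left out, Chaf1b ranged from -0.88 to 0.16, Pole from -0.31 to 0.17 and Gins2 from -0.12 to 0.04, and Mcm5, Mcm2 and Mcm7 changed sign too, while Pola1 stayed between 0.12 and 0.51. Each of these differences had an adjusted p of 1 in limma.

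Mitosis genes lay closer to 0. Their range was -0.10 to 0.54, and the 5 kinases held the highest value, Aurkb with 0.54 ± 0.47, and also Ttk with 0.23 ± 0.34. The Aurkb value came from the first array without FGF5, at -4.12, and was -0.13 without it, and Ttk was -0.22 without the same array. Each mitosis gene named here changed sign when 1 array or another was left out, Mki67 from -0.62 to 1.05. Mki67 differed by 0.21 ± 0.65, Cenpa by 0.17 ± 0.21, Top2a by 0.13 ± 0.48 and Ccnb1 by 0.09 ± 0.19. The lowest were Kif20a with -0.10 ± 0.27, Bub1b with -0.08 ± 0.30, Ube2c with -0.06 ± 0.26 and Cdca8 with -0.06 ± 0.30. The 95% interval for Mki67 ran from -1.49 to 1.92, which leaves room for a difference above 2-fold in either direction. Of the other genes, the 42 for replication had a median of 0.06 with 30 above 0, and Uhrf1, which maintains DNA methylation at the fork, and the thymidine kinase gene Tk1 were highest with 0.58 and 0.39, while Dbf4 and Mcmbp were lowest with -0.08 and -0.07. Uhrf1 was 3.98 and 4.74 with FGF5 and 3.82 and 3.74 without. Tk1 was 2.16 on both arrays with FGF5 and 2.11 and 1.42 without. The second array with FGF5 carried much of the former difference and the second array without it much of the latter. The 53 for mitosis had a median of -0.02 with 22 above 0, from -0.36 for the phosphatase gene Cdc25c and -0.25 for Kif2c to 0.23 for Pbk and 0.47 for Foxm1, a transcription factor of mitotic genes. Foxm1 was -0.66 and -0.36 with FGF5 and -1.51 and -0.45 without, so the first array without FGF5 carried its difference. The arrays did not overlap for 6 of the 42, all higher, and for 1 higher and 3 lower of the 53. The 8 reference genes had a median of 0.00.

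For scale, the 15 undifferentiated markers had a median difference of -0.06 in the same arrays, with 5 above 0 and 10 below, and 2 of them with large differences are given here. Etv5, a transcription factor known to respond to GDNF and FGF signals, was 3.05 and 4.32 with FGF5 and 0.51 and -0.99 without, a difference of 3.92 ± 0.66. Bcl6b, a repressor known from the same response, was 0.98 and 2.27 with FGF5 and -0.78 and -1.01 without, a difference of 2.52 ± 0.46. Both genes were apart between the conditions but, like the members, had an adjusted p of 1 in limma, with unadjusted values of 0.00256 and 0.00345. They were picked after their values were seen. No member differed by as much.

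The last comparison sets Fgf5-/- against WT GFRα1+ cells of the testis. Levels lay close to WT, with 19 of 24 replication genes and 16 of 20 mitosis genes slightly below it, as were 56.1% of all probes, and 0 past the test. In limma, 0 of 30286 probes passed an adjusted p of 0.05, or 0% (smallest adjusted p = 0.728), while 1111 probes higher and 944 lower in Fgf5-/- cells, 6.79% together, had an unadjusted p under 0.05, and 0 members were among them. The median log2 difference, Fgf5-/- minus WT, was -0.14 for the replication genes, -0.12 for the mitosis genes and -0.03 for all probes, but with quantile normalization the medians were 0.02 and 0.02 and with normexp -0.01 and 0.02, so their direction depends on the scaling. The arrays did not overlap for 9 replication genes on the lower side (Fen1, Pola1, Mcm4, Pcna, Mcm6, Lig1, Gins1, E2f1 and Mcm5) and for 1, Pole, on the higher side, and for 4 mitosis genes on the lower side (Birc5, Top2a, Ccnb2 and Cdca8). Over all probes, 9.2% lay apart with Fgf5-/- lower and 7.01% with Fgf5-/- higher. The 8 reference genes had a median of -0.15, with 7 of 8 below 0.

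The first Fgf5-/- array stood lowest. In a count added after the values were seen, 21 of 24 replication and 16 of 20 mitosis genes were below the WT mean on it, by medians of -0.20 and -0.22, and so were 8 of 8 reference genes, by -0.38, and 54.7% of all probes. On the second array it was 19 of 24 and 10 of 20, with medians of -0.06 and 0.00, beside 5 of 8 reference genes (-0.03) and 51.3% of all probes. On the third it was 21 of 24 and 16 of 20, with -0.04 and -0.07, beside 5 of 8 reference genes (-0.11) and 51% of all probes. Without the first array the list medians were -0.07 and -0.05. Of the sorted arrays, the first Fgf5-/- array also had the lowest sums of Leydig cell (0.424), endothelial (2.75), macrophage (1.24) and spermatid markers (5.44). The same held for Sertoli cell (6.75), spermatocyte (54.6), differentiating (152) and undifferentiated markers (197), while its fibroblast sum was the highest (6.65). The part of these lists in the genotype differences was not tested. Leaving out 1 array gave 0 to 6 calls over all probes, with 6 without the first and 5 without the third Fgf5-/- array, and 1 without the second or without the third WT array, and 0 members among any of them.

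Single replication genes show how small the differences were. Mcm6 was 6.73, 6.67 and 6.66 in WT and 6.25, 6.65 and 6.64 in Fgf5-/- cells. Pcna was 4.91, 4.93 and 4.96 in WT and 4.67, 4.82 and 4.88 in Fgf5-/- cells. In both the groups were apart, for Mcm6 by 0.01 at their nearest arrays, with the first Fgf5-/- array lowest, and Pcna differed by -0.14 ± 0.10 (adjusted p = 0.764, limma). Pole had the highest difference of the replication genes, with 5.54, 5.35 and 5.43 in WT and 5.64, 5.63 and 5.70 in Fgf5-/- cells. All its Fgf5-/- arrays were above WT, by 0.22 ± 0.10 (adjusted p = 0.732, limma), but a second probe gave 0.07 ± 0.22 and the mean of its probes -0.11. Next came Tyms with 0.15 ± 0.15, through the first Fgf5-/- array, without which it was 0.00, then Chaf1a with 0.08 ± 0.12 and Gins2 with 0.07 ± 0.12. The lowest were Chaf1b with -0.24 ± 0.16, Rrm2 with -0.21 ± 0.13, Mcm5 with -0.21 ± 0.16 and Rrm1 with -0.20 ± 0.18. Without the first Fgf5-/- array Chaf1b was at -0.08, Mcm5 at -0.05 and Rrm1 at -0.02, so that array carried most of these 3 differences. Ccne1 and Mcm2 were at -0.13 ± 0.11 and -0.09 ± 0.10, but a second Ccne1 probe gave 0.15 ± 0.16. Adjusted p-values of the genes from Pole on lay between 0.732 and 0.890 in limma.

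Of the mitosis genes, Mki67 was given above with every array and differed by -0.12 ± 0.14 (95% interval -0.45 to 0.21). It was -0.01 without the third Fgf5-/- array and -0.22 without the first. Top2a was 3.56, 3.55 and 3.52 in WT and 3.38, 3.43 and 3.43 in Fgf5-/- cells. Its groups were apart by less than 0.1, a difference of -0.13 ± 0.09 (adjusted p = 0.764, limma). Plk1, Aurka, Ccnb1 and Ccna2 were lowest with -0.24 ± 0.13, -0.22 ± 0.15, -0.20 ± 0.16 and -0.19 ± 0.15, and the first Fgf5-/- array carried much of these differences, for Ccnb1 at 3.08 against 3.59 and 3.46 on the others. Without it they were -0.16, -0.08, -0.05 and -0.05. The highest were Aurkb with 0.30 ± 0.18, Cenpe with 0.07 ± 0.15, which was -0.07 without the first Fgf5-/- array, Bub1b with 0.03 ± 0.10 and Kif20a with 0.00 ± 0.10. Aurkb was 0.13 without the second Fgf5-/- array and 0.45 without the third. Among the other genes, the 42 for replication had a median of -0.06, with Cdc7, a kinase of origin firing, and Pole2 highest at 0.21 and 0.15, and Gins3 and Uhrf1 lowest at -0.19 each. Cdc7 lay at -0.47 on the first Fgf5-/- array against -1.22 and -1.24 on the others, and Gins3 at 4.01 against 4.56 and 4.55. Their WT means were -1.19 and 4.56, so that array carried both differences. The 53 for mitosis had a median of -0.06, with Foxm1 and Ncapg highest at 0.27 each and Tpx2 and Ccnf lowest at -0.20 and -0.19. The arrays were apart for 1 higher and 3 lower of the 42 and for 1 higher and 4 lower of the 53.

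**Figure D4:**
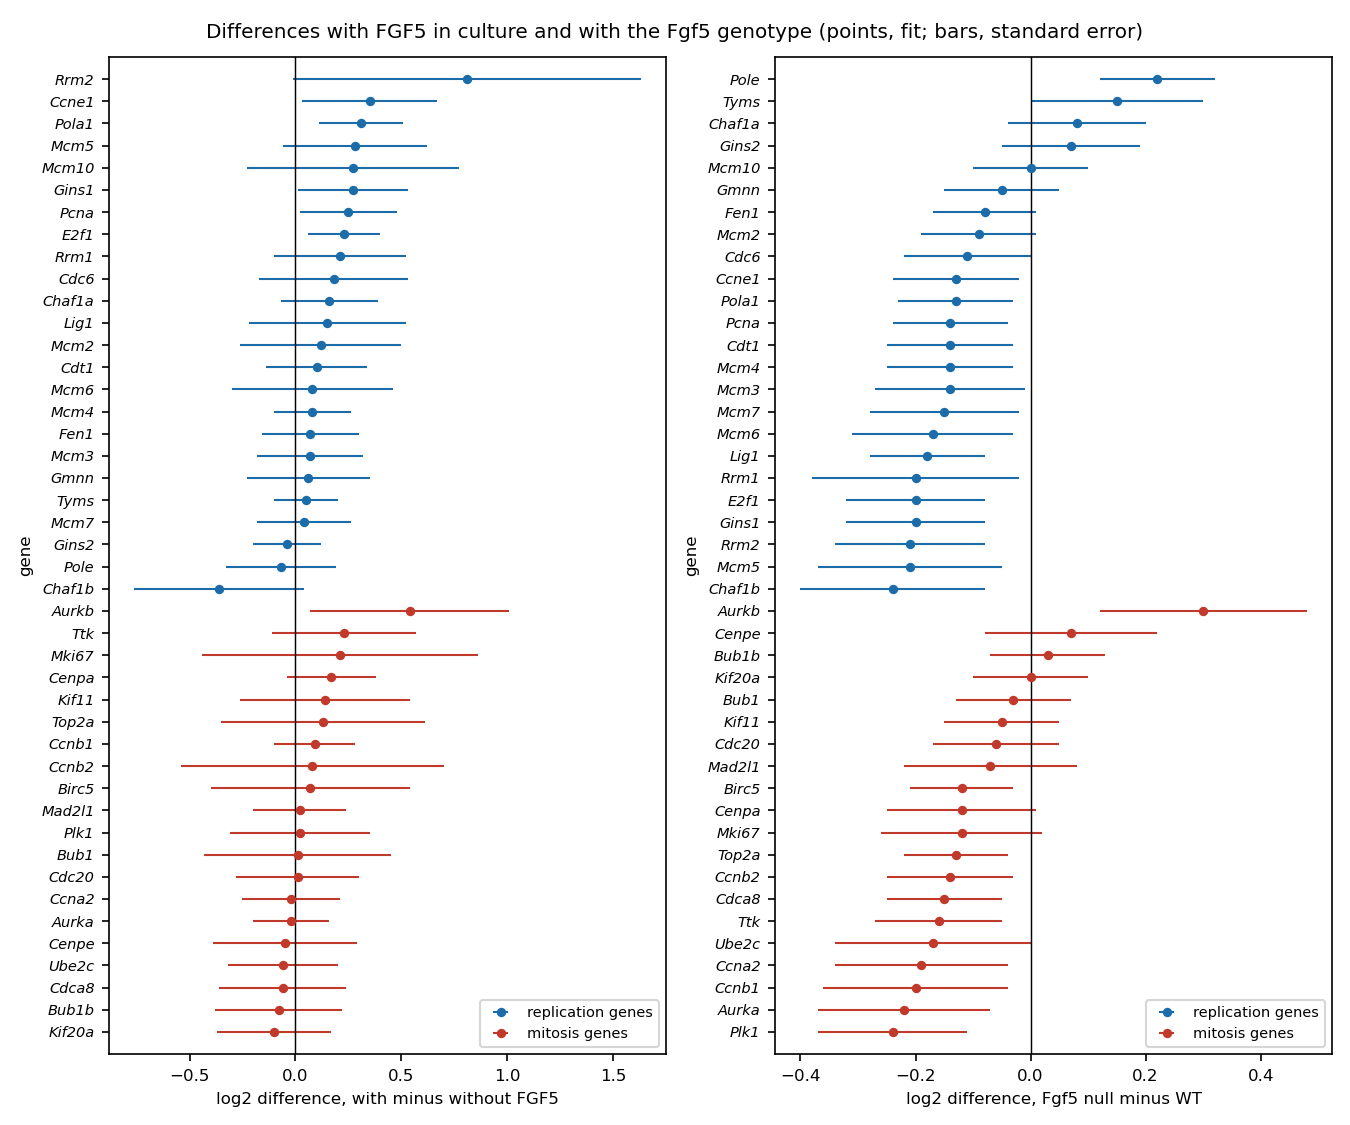
Log2 difference with its standard error for each tested member, GS cells with minus without FGF5 and sorted Fgf5-/- minus WT cells. The replication genes span -0.36 to 0.81 in culture and -0.24 to 0.22 in sorted cells, and 0 members passed the adjusted test in either; with quantile normalization the sorted medians turn from -0.14 and -0.12 to 0.02 and 0.02.

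The comparison of cultured with sorted cells used the same arrays as the other comparisons, so the 3 are not independent. Side by side, Mki67 differed by 0.21 with FGF5, -0.12 in Fgf5-/- cells and -3.82 between materials, Gins1 by 0.27, -0.20 and -2.23, and Tyms by 0.05, 0.15 and 0.64. Sorted WT cells had the smallest spread between arrays for these genes, with a median SD of 0.07 against 0.13 in Fgf5-/- cells, where all tested probes had 0.13 and 0.21.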

How the data were processed

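For each array the authors deposited scanner output, in which the processed signal of a spot is an intensity after background subtraction by Agilent Feature Extraction (version 10.7.3.1 per the labels), and a table of log2 values shifted by the authors to a percentile. The medians of its columns lay between -3.74 and -3.10, and 99.78% to 99.88% of its values per array lay within 0.01 of the log2 signal shifted by 1 constant per array.

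Values were computed anew in R (version 4.3.3), limma (version 3.58.1), data.table (version 1.17.8) and jsonlite (version 2.0.0), and figures and promoter searches in Python (version 3.11.15), pandas (version 2.3.3) and matplotlib (version 3.10.9). From each log2 signal (floor 1, reached by 0 spots) the array's 75th percentile of the 59305 spots other than controls was subtracted. Between 117 and 205 uneven or outlier spots per array were left out, and spots of a probe were averaged. Each experiment was fitted alone, and the materials with 4 group means (lmFit, eBayes, two-sided, Benjamini-Hochberg over all tested probes, threshold 0.05). The procedure was tested on simulated data. Arrays with equal numbers are not stated to share a culture, so groups were unpaired. The number of arrays limits precision.

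The members and lists were chosen with earlier results of these data known. In each comparison the 4 highest and 4 lowest tested members per class were named, with Mcm2, Pcna, Ccne1, Ccnb1, Top2a and Mki67, the 2 highest and 2 lowest of the other genes, and further members by role. Accessions and symbols of all 45 members matched RefSeq GRCm38.p6. Alternatives were quantile normalization, normexp (offset 50, on the spot mean in culture and the spot median in sorted cells), the authors' table, the percentile over detected probes, uneven spots kept, filters looser or stricter than the one used, an intensity trend, the mean of a gene's probes, a replicate block, single groups, and each array left out.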

Additional observations from a re-analysis of the deposited data

How the results depend on the processing

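With FGF5 in culture, 0 probes passed under every setting with a test (the mean of a gene's probes had none in any comparison). The replication median of 0.14 ranged from -0.13 to 0.45 and the mitosis median of 0.02 from -0.29 to 0.31 when 1 array was left out, and other settings moved them by at most 0.02. Of 616 values (44 tested members under 14 other settings), 76 changed sign, and 0 of those with a p passed. The cause was not tested. A left-out array leaves 1 array in a condition, which is assumed to vary like the others.

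In sorted cells, leaving out 1 array gave 0 to 6 probes past the threshold against 0 with all arrays. Of 704 values of the members under 16 settings, 52 changed sign, and 0 of those with a p passed. The replication median of -0.14 ranged from -0.18 to -0.07 and the mitosis median of -0.12 from -0.15 to -0.05. With quantile normalization they were 0.02 and 0.02, and with normexp -0.01 and 0.02, and the cause was not tested.

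Between materials, 23229 probes passed, with 21167 to 24372 when 1 array was left out and 17864 to 25331 under the other settings. With 1 array left out the replication median ranged from -1.36 to -1.04 and the mitosis median from -1.89 to -1.65, and both were below 0 under every setting. Of 924 values of the members under 21 settings, 857 kept their direction and side of the threshold, 44 (the mean of a gene's probes) had no p and kept their direction, 14 no longer passed (Cdc20, Fen1, Bub1 and Rrm1), 5 newly passed (Mcm2, Chaf1b and Aurkb), 4 changed sign without passing, and 0 called values changed sign.

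Equal array numbers pair the samples only as labels. Deviations from the group means correlated at r = 0.636 in culture, where 2 pairs cannot settle it, and at -0.42, -0.157 and -0.148 in sorted cells, where 0 of 6 samples were closest to their own number. With the number as a replicate block, 0 probes passed in both, with smallest adjusted p of 0.196 and 0.885 in limma, and the medians stayed at 0.14 and 0.02 in culture and -0.14 and -0.12 in sorted cells.

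Signal over background limits dim probes such as Aurkb, Tyms and Kif11 more than bright ones. With 2 or 3 arrays per group small differences cannot be seen. Slide, depletion and material cannot be told apart. Probes of Mcm3, Cdc6, Mad2l1 and Pole disagree, and those of Ccne1 differ in sign between genotypes.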
